A study of Homo sapiens with 8 samples.

Results

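The mRNA of 10 integrin subunits was followed after knockdown of IGF2R in 2 cervical cancer cell lines. The subunits were ITGA2, ITGA3, ITGA5, ITGA6, ITGAV, ITGB1, ITGB4, ITGB5, ITGB6 and ITGB8, chosen by name, and each was read through the probe sets that the array annotation gives to that gene alone. These were 28 probe sets, of which 15 reached a signal of 500 on at least 1 of 8 arrays, and they measured 9 of the 10 subunits among 8961 genes measured in all. The other 13, which were 4 each of ITGB1, ITGB4 and ITGB8 and 1 of ITGB5, stayed below 500 on every array and were not tested. The 4 groups were BOKU cells transfected with siIGF2R, BOKU cells transfected with siCtrl, SKG-I cells transfected with siIGF2R and SKG-I cells transfected with siCtrl. All were lipofected with DharmaFECT and harvested 72 h later, and which of the study's siRNAs against IGF2R went on the arrays is not given in the sources used here. Each group was 1 RNA sample hybridized to 2 GeneChip arrays, so the spread between the 2 arrays is technical, and the cell lines are the only replicates of the siRNA.

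Integrins are receptors made of 1 alpha and 1 beta subunit that span the plasma membrane and tie the matrix outside the cell to the actin or keratin filaments inside it. The pairing decides the ligand. ITGB1 pairs with ITGA2 to bind collagen, with ITGA3 or ITGA6 to bind laminin and with ITGA5 to bind fibronectin, while ITGB4 pairs with ITGA6 in the hemidesmosomes of epithelia. ITGAV pairs with ITGB5 to bind vitronectin and with ITGB6 or ITGB8 to bind latent TGF-beta. Integrins are taken up from the surface and recycled or sent to lysosomes. IGF2R, the knockdown target, is the receptor that carries newly made lysosomal enzymes with a mannose 6-phosphate tag from the Golgi to endosomes.

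The values are MAS5 signals, intensities on a linear scale that the authors set to the same trimmed mean of 499.9 on every array. Signals are relative to all RNA on the array, so fewer cells with a transcript and less of it per cell cannot be told apart. A MAS5 signal depends on the probes, so a signal was compared only with the same probe set on other arrays. Over both lines siIGF2R was set against siCtrl by limma on the 4 RNA samples, with the line as a block. The test was two-sided, and a Benjamini-Hochberg adjusted p under 0.05 over 16517 probe sets was called. The signal of IGF2R (201393_s_at) was 641 and 645 on the siIGF2R arrays of BOKU, against 7288 and 6710 on its siCtrl arrays, and 257 and 295 on the siIGF2R arrays of SKG-I, against 4120 and 3838 on its siCtrl arrays. The 2 arrays of a group differed over all probe sets with a standard deviation (SD) of 0.27 to 0.35 on the log2 scale, and of 9 epithelial marker genes 5 reached 500 in BOKU and 7 in SKG-I. EPCAM and CDH1, which are surface proteins of epithelial cells, averaged 38.0 and 1.02 in BOKU with siIGF2R and 30.2 and 2.59 with siCtrl, so the epithelial markers detected in BOKU were keratins and desmosomal genes. None of 4 endothelial and 4 leukocyte markers reached 500 in either line, and COL1A1 was the fibroblast marker that did in both.

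The promoters of the 3 subunits on which the results turn are printed first. ITGB8 was the subunit that passed the test, ITGA5 had the largest decrease over both lines, and ITGA2 was far apart in the lines with opposite signs. Each stretch runs from 250 bases before to 50 bases after a RefSeq transcript start on GRCh38.p14, 5′ to 3′ along the gene, and 8 of the 10 subunits had at least 1 such entry. The ITGA2 stretch is chr5:52989102-52989401 on the plus strand, the ITGA5 stretch is chr12:54419217-54419516 on the minus strand and the ITGB8 stretch is chr7:20330650-20330949 on the plus strand. Capitals mark exact matches, on either strand, to GGGCGG (the GC box of SP1) or TGAGTCA (the AP-1 element), and TGACGTCA (the CRE) was searched too. The 3 motifs do not overlap in these stretches.
ITGA2: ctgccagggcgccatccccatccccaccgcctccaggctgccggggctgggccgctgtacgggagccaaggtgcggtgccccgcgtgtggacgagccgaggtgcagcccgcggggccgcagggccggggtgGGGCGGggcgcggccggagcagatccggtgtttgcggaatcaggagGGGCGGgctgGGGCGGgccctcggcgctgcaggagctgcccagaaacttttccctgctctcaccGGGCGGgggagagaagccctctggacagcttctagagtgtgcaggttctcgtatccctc
ITGA5: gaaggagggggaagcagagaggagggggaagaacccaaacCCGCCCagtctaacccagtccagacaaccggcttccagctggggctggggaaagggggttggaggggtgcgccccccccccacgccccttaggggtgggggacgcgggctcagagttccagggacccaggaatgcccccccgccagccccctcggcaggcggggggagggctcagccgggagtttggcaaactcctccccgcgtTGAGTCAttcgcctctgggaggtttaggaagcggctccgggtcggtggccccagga
ITGB8: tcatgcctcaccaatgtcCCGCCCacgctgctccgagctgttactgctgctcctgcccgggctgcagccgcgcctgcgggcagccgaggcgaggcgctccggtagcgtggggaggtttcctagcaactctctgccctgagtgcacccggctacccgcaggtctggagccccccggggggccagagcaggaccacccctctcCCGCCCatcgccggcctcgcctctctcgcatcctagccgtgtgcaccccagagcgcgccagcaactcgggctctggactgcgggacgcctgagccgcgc
The ITGA2 stretch held 4 GC boxes, the ITGB8 stretch 2 and the ITGA5 stretch 1, and 45% of 35116 promoters of the same length held at least 1. The ITGA5 stretch held 1 AP-1 match, at position 245, a motif found in 4.95% of the promoters, and none of the 3 held a CRE, found in 1.85%. These matches describe the letters and do not show that a factor binds there.

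ITGA2, the alpha subunit of the collagen receptor, differed most between siIGF2R and siCtrl. Its probe set 227314_at gave 1652 and 1673 on the siIGF2R arrays of BOKU, against 3451 and 2921 on the siCtrl arrays. In SKG-I it gave 5102 and 4806 on the siIGF2R arrays, against 550.5 and 557.3 on the siCtrl arrays. With siIGF2R the signal was thus 1.91-fold lower in BOKU and 8.94-fold higher in SKG-I, with no overlap between the arrays in either line, and the log2 changes were −0.93 and 3.16. The order of the lines was also turned round, since SKG-I had the highest signal of the 4 RNA samples with siIGF2R and the lowest with siCtrl. The dimmer probe set of the gene, 205032_at, had the same signs, with 412.5 and 330 on the siIGF2R arrays of BOKU against 758 and 725 on the siCtrl arrays. In SKG-I it gave 1010 and 704 with siIGF2R, against 155 and 225 with siCtrl. It passed the filter only through BOKU siCtrl and SKG-I siIGF2R, the groups where it was high, so it is not read as support. Because the lines moved apart, the change of 227314_at over both was 1.11 ± 0.87 on the log2 scale (SE, n = 2 lines, limma adjusted p = 0.450) and did not pass the test. The difference between the lines could not be tested, since 4 RNA samples leave no residual degree of freedom for it.

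**Figure D1:**
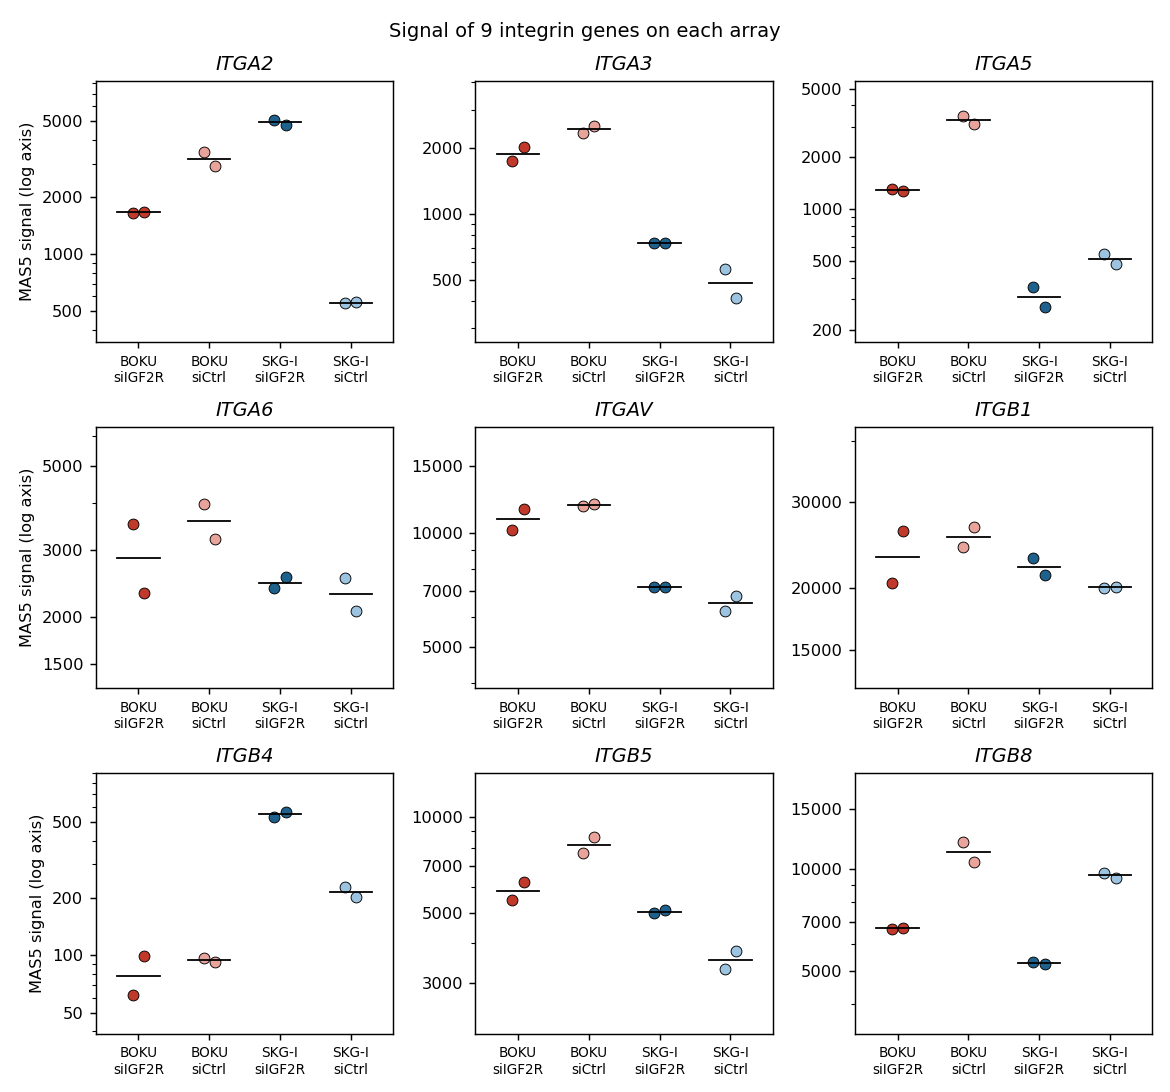
MAS5 signal of each array (points, log axis) and geometric mean of the 2 arrays (line) for the brightest probe set of each of 9 integrin genes, in BOKU and SKG-I cells with siIGF2R or siCtrl. ITGA2 in SKG-I lies at 5102 and 4806 with siIGF2R, against 550.5 and 557.3 with siCtrl, while ITGB8 is lower with siIGF2R in both lines.

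Of the laminin receptor subunits, none passed the test. ITGA3, the partner of ITGB1 in a receptor for laminins of the epithelial basement membrane, gave 1740 and 2026 on the siIGF2R arrays of BOKU, against 2355 and 2539 on the siCtrl arrays. In SKG-I it gave 739.0 and 738.3 with siIGF2R, against 558 and 414 with siCtrl. The arrays did not overlap in either line, and the log2 changes of −0.38 in BOKU and 0.62 in SKG-I had opposite signs. Over both lines the change was 0.12 ± 0.29 (SE, n = 2 lines, limma adjusted p = 0.816).

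ITGA6, which pairs with ITGB1 or ITGB4, gave 3533 and 2312 with siIGF2R in BOKU, against 3974 and 3225 with siCtrl. In SKG-I the values were 2385 and 2554 with siIGF2R, against 2538 and 2081 with siCtrl. The arrays overlapped in both lines, so no change beyond the technical spread was seen (log2 changes of −0.33 in BOKU and 0.10 in SKG-I). The dimmer probe set of the gene, 215177_s_at, was separated in BOKU alone, with 777 and 724 with siIGF2R against 1147 and 1101 with siCtrl (log2 change −0.58). ITGB4, the beta subunit of hemidesmosomes, gave 62.1 and 98.8 with siIGF2R in BOKU, against 96.4 and 92.6 with siCtrl. SKG-I had 533 and 567 with siIGF2R, against 228 and 201 with siCtrl, a 2.57-fold difference. ITGB4 therefore passed the filter only through the siIGF2R arrays of SKG-I and lay close to it, at most 567, while the nearest probe set below the filter was 205816_at of ITGB8 at 397. The change of ITGB4 over both lines was 0.55 ± 0.56 (SE, n = 2 lines, limma adjusted p = 0.565).

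ITGA5, the alpha subunit of the fibronectin receptor, was lower with siIGF2R in both lines. Its probe set 201389_at gave 1317 and 1283 with siIGF2R in BOKU, against 3463 and 3120 with siCtrl. The SKG-I values were 355 and 271 with siIGF2R, against 551 and 482 with siCtrl. The arrays did not overlap in either line, and the signal was 2.53-fold lower in BOKU and 1.66-fold lower in SKG-I. Over both lines the log2 change was −1.04 ± 0.24 (SE, n = 2 lines, limma adjusted p = 0.0702), which missed the threshold. It passed in 5 of the other settings, and the adjusted p ran between 0.000662 and 0.140 over all of them. Without array 1 of BOKU siCtrl it was 0.0406, and without array 2 of BOKU siIGF2R it was 0.0439.

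ITGB8, the beta subunit that with ITGAV binds and activates latent TGF-beta, was the only subunit to pass the test of siIGF2R against siCtrl. Its probe set 226189_at gave 6656.5 and 6721 with siIGF2R in BOKU, against 12007 and 10464 with siCtrl. SKG-I gave 5311 and 5244 with siIGF2R, against 9734 and 9436 with siCtrl. All 4 siIGF2R arrays lay below all 4 siCtrl arrays, and the signal was 1.68-fold lower in BOKU and 1.82-fold lower in SKG-I. Over both lines ITGB8 fell by 0.80 on the log2 scale, with an SE of 0.14 (n = 2 lines, limma adjusted p = 0.0428). The call was close to the threshold. The adjusted p was 0.0622 after quantile normalization, 0.141 with no trend of the variance with signal, 0.0535 with a filter at 250, 0.0625 with no filter and 0.0544 without array 1 of BOKU siIGF2R. Over all settings it ran between 4.26e-05 and 0.141, and the direction was the same in each. The other 4 probe sets of ITGB8 stayed below 500 on every array.

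ITGAV, the alpha subunit that ITGB5, ITGB6 and ITGB8 share, differed little between the siRNAs. It gave 10180 and 11580 with siIGF2R in BOKU, against 11772 and 11894 with siCtrl, and 7198 and 7204 with siIGF2R in SKG-I, against 6227 and 6809 with siCtrl. The 2 sets of arrays did not overlap in either line, but the log2 changes were only −0.12 and 0.15, and quantile normalization put the BOKU change at 0.0072. ITGB5, which makes the vitronectin receptor with ITGAV, gave 5491 and 6247 with siIGF2R in BOKU, against 7699 and 8614 with siCtrl. The SKG-I arrays read 4986 and 5076 with siIGF2R, against 3324 and 3781 with siCtrl. Its 3 measured probe sets had log2 changes of −0.48, −0.80 and −0.44 in BOKU and of 0.50, 0.28 and 0.09 in SKG-I, the same signs throughout, although the probes of 214020_x_at are of a class that may match other transcripts. Over both lines the brightest probe set of ITGB5 changed by 0.01 ± 0.25 and ITGAV by 0.01 ± 0.14 (SE, n = 2 lines, limma adjusted p = 0.978 and 0.972). ITGB6 could not be read, since its 4 probe sets are annotated with a further gene, LINC02478, as well, and none exceeded 87.6 on any array.

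ITGB1 is the most widely shared beta subunit. Its brightest probe set, 211945_s_at, gave 20489 and 26109 with siIGF2R in BOKU, against 24269 and 26664 with siCtrl, and 23069 and 21264 with siIGF2R in SKG-I, against 20043 and 20143 with siCtrl. The arrays overlapped in BOKU and were apart in SKG-I. The log2 changes were −0.14 and 0.14, and over both lines 0.00 ± 0.12 (SE, n = 2 lines, limma adjusted p = 0.994). The other 2 measured probe sets of ITGB1 had log2 changes of −0.12 each in BOKU and of 0.37 and 0.40 in SKG-I.

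**Figure D2:**
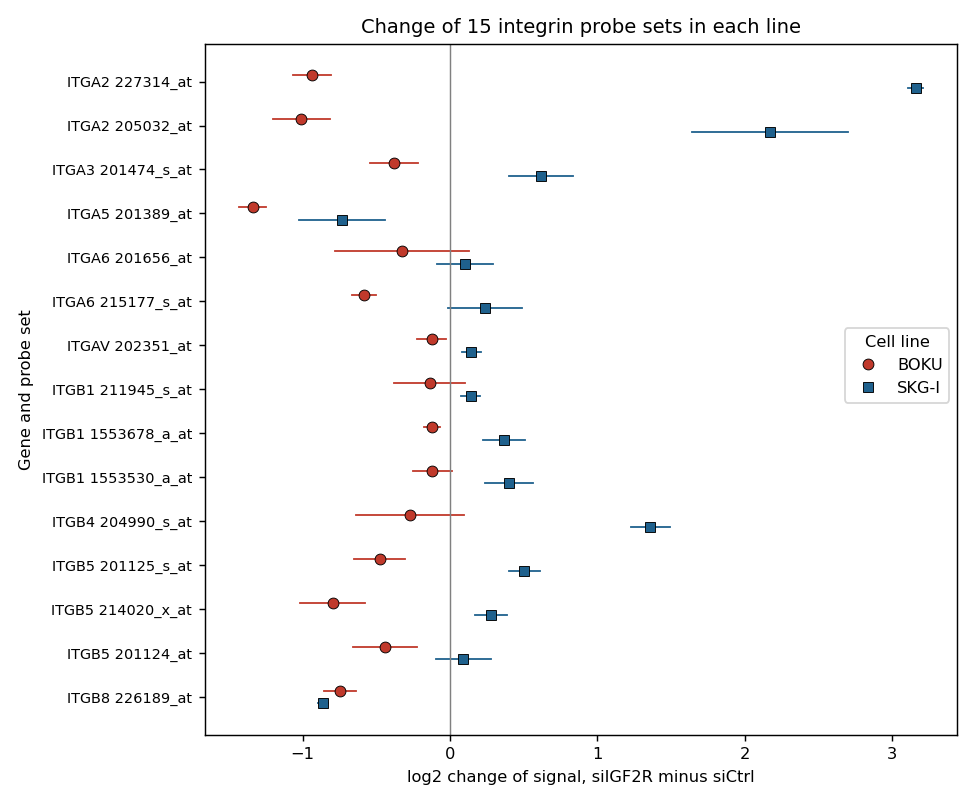
Log2 change of signal, siIGF2R minus siCtrl, of 15 integrin probe sets in BOKU (circles) and SKG-I (squares); lines span the 4 pairs of a siIGF2R and a siCtrl array. The BOKU points lie at −0.12 or lower and 13 of 15 SKG-I points lie above 0, with ITGA5 and ITGB8 below 0 in both lines.

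Set side by side, the subunits were lower with siIGF2R in BOKU and mostly higher in SKG-I. In BOKU all 9 measured subunits (15 of 15 probe sets) had a lower mean with siIGF2R, against 47.4% of all probe sets, though the count was 8 after quantile normalization (ITGAV) or with a floor of 100 (ITGB4), and 7 without array 1 of BOKU siIGF2R. In SKG-I 7 of 9 subunits (13 of 15 probe sets) had a higher mean with siIGF2R, against 49.8% of all probe sets, and 6 subunits without array 2 of SKG-I siCtrl. ITGB4 had to be higher there, since it passed the filter through the siIGF2R arrays of SKG-I alone, and without it the count was 6 of 8 subunits (12 of 14 probe sets). The signs of 205032_at of ITGA2 were also tied to the filter, which it passed through BOKU siCtrl and SKG-I siIGF2R alone. That probe set is in the probe set counts. Setting the array medians equal kept the 7 but moved the median of all probe sets in SKG-I to −0.105 and left ITGA6 there at 0.00073. The median change of the 15 probe sets was −0.44 in BOKU and 0.28 in SKG-I, against 0.03 and −0.0027 over all probe sets. The siIGF2R arrays lay below the siCtrl arrays in BOKU and above them in SKG-I, with no overlap in either, for 7 of the 15 probe sets (ITGA2, ITGA3, ITGAV, ITGB1 and ITGB5), where 5.69% of all probe sets did so. Probe sets of 1 gene read the same transcripts, and the 2 arrays of a group share their RNA, so these counts describe the 4 RNA samples and no test was made of them.

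The counts of calls were small. No member probe set was called higher with siIGF2R, where 2.20% of all probe sets were, and 1 of 15 was called lower, where 2.09% were. Over all probe sets 363 were higher and 346 lower, which became 321 and 545 when the medians of the arrays were set equal. At an unadjusted p under 0.05, 2 member probe sets passed (ITGA5 and ITGB8, both lower), against 27% of all. A 2-fold or larger change shared by both lines was found for 0 of 15 upward (3.15% of all) and 0 of 15 downward (2.28% of all). A 2-fold or larger change with opposite signs in the lines was found for 1 of 15, against 0.381% of all, and this was 205032_at of ITGA2. That probe set passed the filter only through the groups where it was high, so this count is not read as support. These shares do not set the integrin genes apart as a group in the test over both lines.

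The lines themselves differed in several subunits. Over both siRNAs, by the same limma fit with the siRNA as a block, ITGA3, ITGA5 and ITGAV were higher in BOKU than in SKG-I. The log2 differences, BOKU minus SKG-I, were 2.37 ± 0.24 for ITGA5 (SE, n = 2 RNA samples per line, adjusted p = 0.00174), 1.85 ± 0.29 for ITGA3 (adjusted p = 0.00563) and 0.73 ± 0.14 for ITGAV (adjusted p = 0.0112). In ITGA3 and ITGA5 all 4 BOKU arrays lay above all 4 SKG-I arrays, as the signals above show. ITGB4 was at least 3.43-fold lower in BOKU, with signals below 100 set to 100, and its adjusted p was then 0.0540, against 0.0315 with the signals as deposited. All 4 BOKU arrays of ITGB4 were under 100, and it was tested only because its siIGF2R arrays in SKG-I passed the filter, so its call is not read as support. ITGAV lost its call with no trend of the variance (adjusted p = 0.0584, range over the settings 4.76e-05 to 0.0584). One of 3 probe sets of ITGB5 was also called higher in BOKU (201124_at, 0.79 ± 0.25, adjusted p = 0.0450), and the brightest was not (0.71 ± 0.25, adjusted p = 0.0652). The brightest passed without array 1 of BOKU siCtrl (adjusted p = 0.0349) or array 1 of BOKU siIGF2R (0.0491), with a range of 0.00695 to 0.151 over the settings. ITGA6, at 0.43 ± 0.20 (adjusted p = 0.124), passed without array 2 of BOKU siIGF2R (0.0372, range 0.0353 to 0.371). In all, 4 of 15 probe sets were called higher in BOKU, where 22.3% of all probe sets were, and 1 of 15 (ITGB4) lower, where 23.2% were, so the members' share is near the background. Each line is a single line, and its 2 RNA samples differ in siRNA.

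The gap between the lines is given with each siRNA as a description, since its dependence on the siRNA could not be tested. For ITGA2 the log2 difference between BOKU and SKG-I was −1.57 with siIGF2R and 2.52 with siCtrl, and over both siRNAs it was 0.47 ± 0.87 (limma adjusted p = 0.681). For ITGB5 it was 0.22 with siIGF2R and 1.20 with siCtrl, and for ITGA3 1.35 with siIGF2R and 2.35 with siCtrl. For ITGB8 it was 0.34 with siIGF2R and 0.23 with siCtrl. For ITGB4 the gap was −2.81 with siIGF2R and −1.18 with siCtrl. ITGB4 passed the filter through the siIGF2R arrays of SKG-I alone and was under 100 on all BOKU arrays. Its wider gap with siIGF2R is therefore not read as support. The gap was smaller in size with siIGF2R than with siCtrl in 7 of 9 subunits, against 57.3% of all probe sets. With siIGF2R 7 of 9 subunits were higher in BOKU and with siCtrl 8 of 9 were, against 49.6% and 47.9% of all probe sets.

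**Figure D3:**
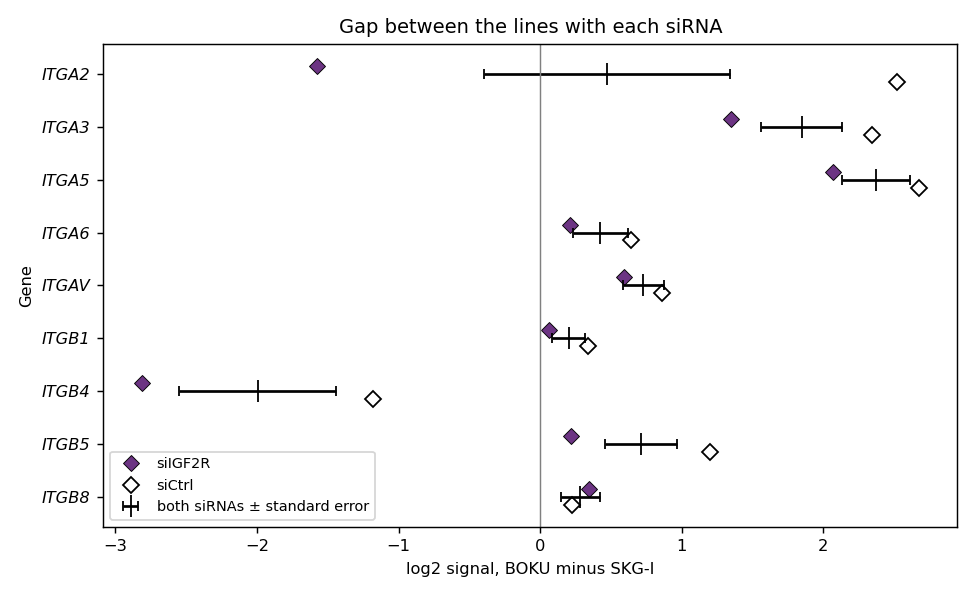
Log2 signal of BOKU minus SKG-I for the brightest probe set of 9 integrin genes, with siIGF2R (filled) and siCtrl (open), and the limma estimate over both siRNAs with its standard error (bar). ITGA2 lies at −1.57 with siIGF2R and at 2.52 with siCtrl, on opposite sides of 0.

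Genes with the profile most like that of ITGA2 over the 4 RNA samples were sought among 8961 genes, with 1 probe set each, by the Euclidean distance between log2 profiles centred on their means. They were THBD (thrombomodulin, distance 0.61), RIGI (a cytoplasmic RNA sensor, 0.71) and AMIGO2 (a leucine-rich repeat adhesion protein, 0.89). THBD gave 477 and 396 with siIGF2R in BOKU, against 688 and 777 with siCtrl, and 964 and 900 with siIGF2R in SKG-I, against 182 and 192 with siCtrl. RIGI was 8.85-fold higher with siIGF2R in SKG-I and AMIGO2 was 6.36-fold higher, whereas in BOKU their log2 changes were 0.06 and 0.13. The choice by distance fixes that these profiles look alike, so the values only describe them.

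The genes that work with these subunits were read by list. Of 16 other integrin subunits 2 were measured, and neither was called for the siRNA. ITGB3, another partner of ITGAV, gave 1913 and 1845 with siIGF2R in BOKU, against 3947 and 4112 with siCtrl, and at most 19.4 on any SKG-I array, so it was at least 27.5-fold higher in BOKU with signals below 100 set to 100 (limma adjusted p = 0.000409). ITGB3 passed the filter through its BOKU arrays alone, the line where it is high, so this call is not read as support. ITGB3 was 2.14-fold lower with siIGF2R in BOKU, the same sign as its relatives there, and its SKG-I values are too dim for a change to be read. ITGAE, a subunit of lymphocytes that binds E-cadherin, gave 5599 and 5691 with siIGF2R in BOKU, against 6017 and 6140 with siCtrl. In SKG-I ITGAE gave 6798 and 7184 with siIGF2R, against 7294 and 7697 with siCtrl, so that its log2 changes were −0.11 and −0.10.

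Of 31 integrin ligands and matrix genes 23 were measured, 2 rose and 1 fell with siIGF2R, where 2.20% and 2.09% of all probe sets did. Their median log2 change was 0.25 against 0.01 over all genes. EDIL3, a secreted ligand of ITGAV integrins, gave 2685 and 2177 with siIGF2R in BOKU, against 196 and 132 with siCtrl, and 370 and 422 with siIGF2R in SKG-I, against 29.0 and 32.2 with siCtrl. EDIL3 rose in both lines (limma adjusted p = 0.0221 over n = 2 lines), by 15.1-fold in BOKU and by at least 3.95-fold in SKG-I with signals below 100 set to 100 (adjusted p = 0.0381 with that floor). It passed the filter through the siIGF2R arrays of BOKU alone, where it was high, so its call is not read as support. TGFB2, a TGF-beta isoform, rose by 1.22 ± 0.21 (adjusted p = 0.0434), with 753 and 631 with siIGF2R in BOKU against 326 and 290 with siCtrl, and 1921 and 2048 with siIGF2R in SKG-I against 809 and 837 with siCtrl. TGFB2 thus rose while ITGB8 fell in the same cells, and no link between them was tested. SPP1, or osteopontin, another ligand of ITGAV integrins, fell by 1.59 with an SE of 0.24 (adjusted p = 0.0330, but 0.210 with signals below 100 set to 100), with 2790 and 2843 with siIGF2R in BOKU against 9268 and 9335 with siCtrl, and at most 113 on any SKG-I array. Of 4 hemidesmosome partners 3 were measured and none was called.

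Of 36 activators and adhesion adaptors 25 were measured, 2 rose and 1 fell, where 2.20% and 2.09% of all probe sets did, with a median of 0.12. FERMT1 (kindlin-1), which binds beta subunit tails and helps to activate them, rose by 1.59 ± 0.22 (SE, n = 2 lines, limma adjusted p = 0.0299), with 408 and 365 with siIGF2R in BOKU against 156 and 104 with siCtrl. In SKG-I FERMT1 gave 3049 and 3083 with siIGF2R, against 1140 and 909 with siCtrl. ZYX (zyxin), a protein of focal adhesions and stress fibres, rose by 2.01 ± 0.36 (adjusted p = 0.0441) and was 2.58-fold higher in BOKU and 6.27-fold higher in SKG-I. ZYX gave 731 and 810 with siIGF2R in BOKU, against 316 and 282 with siCtrl, and 1476 and 1231 with siIGF2R in SKG-I, against 233 and 199 with siCtrl. It passed the filter through its siIGF2R arrays alone, where it was high, so its call is not read as support. TNS3, a tensin that links beta subunit tails to actin, fell by 1.29 with an SE of 0.18 (adjusted p = 0.0297), with 1394 and 1432 with siIGF2R in BOKU against 3525 and 3692 with siCtrl, and 1934 and 2039 with siIGF2R in SKG-I against 4450 and 4829 with siCtrl.

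Of 23 genes for the inhibition, endocytosis and recycling of integrins 18 were measured, none rose and 1 fell, with a median of −0.18. This was ITGB1BP1 (ICAP-1), which binds the ITGB1 tail and holds the receptor inactive. It gave 1250 and 1111 with siIGF2R in BOKU, against 3365 and 3917 with siCtrl, and 1738 and 1591 with siIGF2R in SKG-I, against 3204 and 3619 with siCtrl. ITGB1BP1 fell by 1.33 with an SE of 0.22 (n = 2 lines, limma adjusted p = 0.0389), while ITGB1 itself had a change of 0.00. Of 18 membrane partners, among them tetraspanins and growth factor receptors, 17 were measured and none was called, with a median of −0.16. Over all 8961 genes 232 rose and 211 fell, and the few calls in these short lists do not set any list apart from that background. None of the 7 calls in these lists held with no trend of the variance, where the adjusted p ran between 0.1015 and 0.120. With quantile normalization TGFB2 and ZYX missed the threshold (limma adjusted p = 0.05405 and 0.0599). With a filter at 250 TGFB2, ZYX and ITGB1BP1 missed it (limma adjusted p = 0.0533, 0.0548 and 0.0518). TGFB2 also missed the threshold without array 2 of BOKU siCtrl (0.0565) or array 1 of BOKU siIGF2R (0.0546), and ZYX without array 2 of BOKU siCtrl (0.0599). Over 19 other settings the 7 genes kept their direction, and the adjusted p of TGFB2 ran between 3.05e-05 and 0.105 and that of ZYX between 0.000306 and 0.120. A test over both lines favours genes that move the same way in BOKU and SKG-I, as the called genes did.

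**Figure D4:**
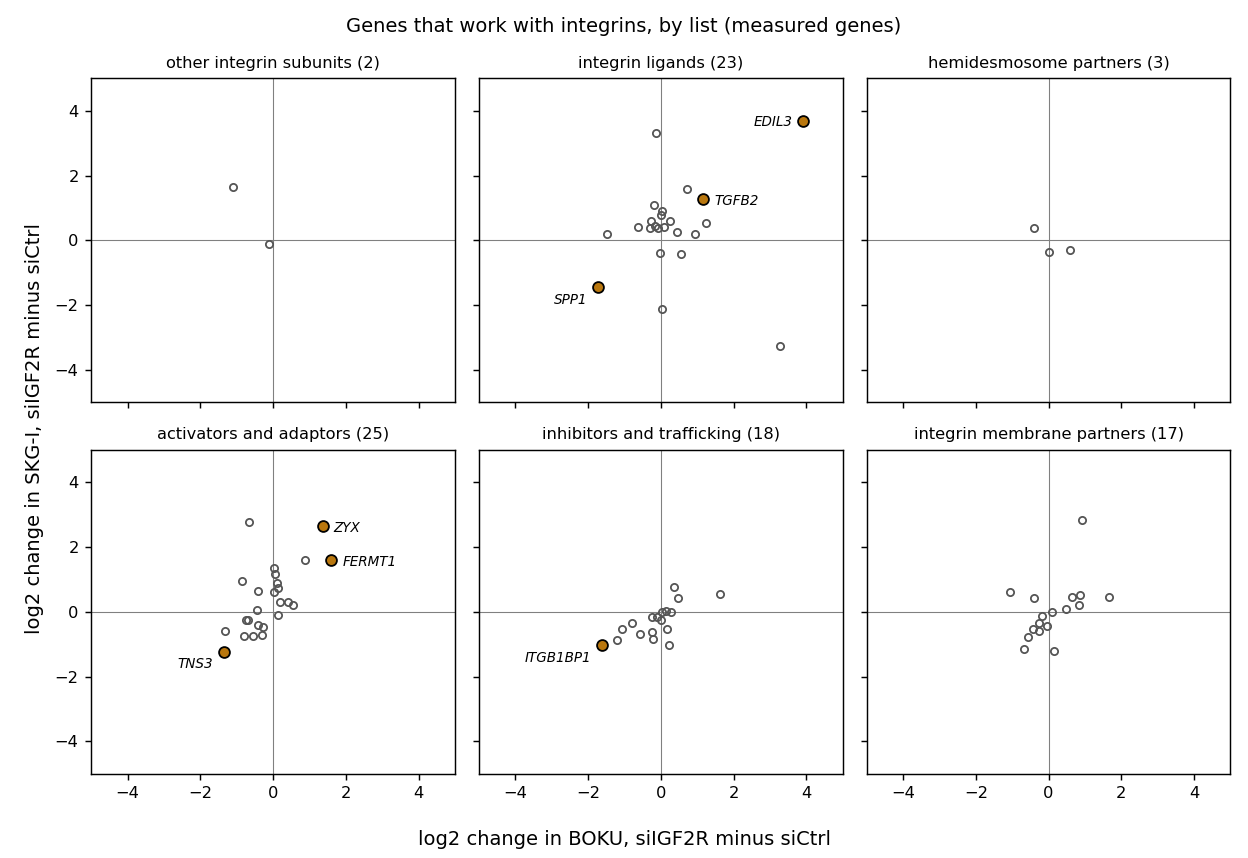
Log2 change, siIGF2R minus siCtrl, in BOKU (horizontal) and SKG-I (vertical) of the measured genes of 6 lists of integrin relatives, ligands and partners; filled points passed the limma test over both lines. The 7 filled points have the same sign in both lines, such as TGFB2 at 1.17 and 1.27, and the SKG-I positions of EDIL3 and SPP1 rest on signals near or below 100.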

How the data were processed

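Gene expression in 8 arrays (GeneChip U133 Plus 2.0) of 4 RNA samples was analyzed. The authors labeled cRNA, scanned the arrays and deposited linear MAS5 intensity values, with background subtraction, the summary over probes and the scaling already done. The scanned images were not used here. The array number limits the precision. Gene names came from the platform annotation, updated through gene identifiers, and promoters from RefSeq.

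Log2 signals with neither floor nor constant were averaged over the arrays of an RNA sample, since the study states that both carried the same RNA. Without the 62 control probe sets, 16517 of 54675 probe sets (30.2%) reached 500 on 1 array or more and were kept. The annotation gave 1 gene to 14544 of these, several to 765 and none to 1208. The study applied its filter at 500 to signals scaled to a mean of 1000, whereas the deposited signals have means of 752 to 840, so the filters are not the same. The model in limma 3.58.1 (R 4.3.3) had line and siRNA as terms and a trend of the variance with signal, with 1 residual and 4.82 prior degrees of freedom. The brightest probe set by mean signal stood for its gene. The residual spread in both comparisons is the difference between the 2 lines, each grown once, in the siRNA change. The variance of each probe set was drawn toward the trend over all probe sets, so the p values do not measure that spread alone. For BOKU against SKG-I they measure no spread among separate lines of a kind. The script was tested on simulated data. Group labels gave no batch.

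Every member was named, with values for its measured probe sets. Of each other list up to 3 called genes with the largest change were named, and each measured gene of the other integrin subunits. The members and lists were chosen with earlier results of these data known. Alternatives covered normalization (quantile, median, mean of 1000), a floor of 100, a constant of 64, duplicates averaged arithmetically, a variance with no trend, the filter, the arrays as separate samples, the replicate block, the 2-fold rule, the methods' t-test and leaving out each array.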

Additional observations from a re-analysis of the deposited data

Results flagged for a closer look

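In 4 of 9 subunits, each by its brightest probe set, both siIGF2R arrays lay below both siCtrl arrays in BOKU and above them in SKG-I. Of all probe sets 5.69% did so. The difference between the lines was not tested in any of them, since 4 RNA samples leave no residual degree of freedom for it. The log2 changes, siIGF2R minus siCtrl, were −0.93 in BOKU and 3.16 in SKG-I for ITGA2, −0.38 and 0.62 for ITGA3, −0.48 and 0.50 for ITGB5, and −0.12 and 0.15 for ITGAV. The ITGAV changes are smaller than the SD of 0.27 to 0.35 between duplicate arrays over all probe sets, and its BOKU change was 0.0072 after quantile normalization.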

How the results depend on the processing

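The number of integrin probe sets called lower with siIGF2R, 1 as reported, was 0 with quantile normalization, no trend of the variance, a filter at 250, no filter, the 2-fold rule in each line and the methods' t-test with 2-fold, before and after Benjamini-Hochberg adjustment. It was 2 (ITGA5 and ITGB8) with a constant of 64 added and with the arrays as separate samples, and 0 to 2 when 1 array was left out. The number called higher in BOKU, 4 as reported, was 2 with no trend and 10 with the arrays as separate samples, and the number called lower in BOKU was 0 with a floor of 100. With the replicate number as a block (replicate block, arrays as separate samples) 2 probe sets were called lower with siIGF2R and 8 higher in BOKU. The numbers do not pair the arrays, since the correlations of same-numbered arrays ran between −0.0061 and 0.126. Separate arrays of 1 RNA sample hold no biological spread. For the other changes the cause was not tested.

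Changes near 0 turned their sign. With median scaling, the change over both lines was −0.093 for ITGAV, −0.10 for ITGB1 and −0.089 for ITGB5, and with the mean of its probe sets it was −0.14 for ITGB5. After quantile normalization ITGAV in BOKU was 0.0072 and ITGB1 between BOKU and SKG-I was −0.11. When 1 array was left out, the change over both lines ran between −0.26 and 0.042 for ITGA6, −0.036 and 0.057 for ITGAV, −0.086 and 0.089 for ITGB1, and −0.032 and 0.061 for ITGB5. The BOKU change then ran between −0.31 and 0.038 for ITGB1 and −0.61 and 0.065 for ITGB4, and the SKG-I change between −0.040 and 0.25 for ITGA6. Over both comparisons of the 9 subunits, 323 values under other settings kept their direction and side of the threshold, 15 came to pass it, 7 no longer passed it and 15 turned their sign, none of which had been called. Over all probe sets 363 were called higher and 346 lower with siIGF2R, against 0 and 0 with no trend, 655 and 575 with a constant of 64, and 4269 and 3833 with the arrays as separate samples. Low signals limit ITGB4 in BOKU and ITGB6.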

Other observations

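Values of ligands were also read beside their receptors across the lines, for genes chosen after their values were seen. FN1, or fibronectin, the ligand of the receptor of ITGA5 and ITGB1, gave 28412 and 36751 with siIGF2R in BOKU, against 35262 and 38034 with siCtrl. In SKG-I FN1 gave 1144 and 1253 with siIGF2R, against 533 and 581 with siCtrl. FN1 was higher in BOKU than in SKG-I by 5.40 on the log2 scale (limma adjusted p = 0.000381), as ITGA5 was by 2.37. ITGB3 and SPP1, a receptor subunit and a ligand that can bind it, were also higher in BOKU, at least 27.5-fold and 49.7-fold with signals below 100 set to 100. Both passed the filter through BOKU arrays alone, so these line differences are not read as support. ITGA3 was higher in BOKU, while the laminin chains were split. LAMB3 was lower there, with a log2 difference of −1.57 (limma adjusted p = 0.00834), and LAMA1 at least 29.2-fold lower with the same floor. LAMC1 was higher, at 0.74 (adjusted p = 0.0187), as was LAMB2, at 5.73 (adjusted p = 0.00569) with at most 77.1 in SKG-I. LAMA1 reached 500 in SKG-I alone and LAMB2 in BOKU alone, so the line differences of LAMA1 and LAMB2 are not read as support. No floor was set for the 5.73 of LAMB2, whose SKG-I signals were below 100. LAMB3 and LAMC1 reached 500 on all 8 arrays. COL1A1 had a difference of −1.86 (adjusted p = 0.00176), while the collagen receptor subunits ITGA2 and ITGB1 were not called between the lines (adjusted p = 0.681 and 0.202). Of the 23 measured ligands 7 were called higher in BOKU and 6 lower, where 22.3% and 23.2% of all probe sets were. These counts do not set the ligands apart. FERMT1 was lower in BOKU, with a log2 difference of −2.99, and CD9, a tetraspanin that associates with integrins, was at least 85.9-fold lower with that floor. FERMT1 and CD9 passed the filter through SKG-I arrays alone, so these differences are not read as support either.

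A second pattern, also chosen after the values were seen, was that of ITGA2 in SKG-I. CCN2, a matricellular ligand of integrins, gave 14004 and 16334 with siIGF2R in BOKU, against 17165 and 16300 with siCtrl, and 12591 and 11965 with siIGF2R in SKG-I, against 1393 and 1109 with siCtrl. NEDD9, an adhesion docking protein, gave 2091 and 2025 with siIGF2R in SKG-I, against 303 and 301 with siCtrl, and PLAUR, the urokinase receptor, gave 10701 and 10793, against 1494 and 1515. In BOKU the log2 changes of CCN2, NEDD9 and PLAUR were −0.15, −0.67 and 0.92, and none of the 3 passed the test over both lines (limma adjusted p = 0.228, 0.431 and 0.0694). NEDD9 passed the filter through the siIGF2R arrays of SKG-I alone, where it was high, so its SKG-I values are not read as support. Its BOKU signals were at most 110 on any array, too dim for a change to be read.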
